A study of Mus musculus with 16 samples.

Results

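RNA sequencing was described in the 4 vector sham libraries of a mouse heart series, 4 of 16 libraries in all. The members are the libraries labelled AAV9-Vector, the control for a virus carrying PRODH, and Sham. All are from C57BL/6 mice with the genotype label WT. Surgery followed 3 weeks after the injection, and cardiomyocytes, the contracting muscle cells of the heart, were isolated 4 weeks after surgery. The other groups of 4 (PRODH virus with sham surgery, and either virus after constriction of the aorta) were not used, so no level here is set against another condition. The virus and the sham operation are shared by all 4 libraries, so a level in an uninjected and unoperated heart is not given. The labels do not tie the 4 libraries to separate animals. Every standard deviation (SD, n = 4) is therefore the spread among 4 libraries and may be technical.

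A cardiomyocyte shortens when calcium released from the sarcoplasmic reticulum binds troponin on the thin filaments, which lets the myosin heads of the thick filaments pull. The calcium pump of the reticulum then takes the calcium back up, under the brake of the small membrane protein phospholamban. The heart beats without rest and makes most of its ATP in mitochondria, chiefly from fatty acids. Most subunits of the respiratory chain are encoded in the nucleus, and the mitochondrial genome adds a core of 13 proteins.

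Levels are given as TPM, the share of transcripts: each deposited estimated count was divided by the deposited length of its gene model and scaled to 1000000 per library. TPM can be compared between genes, whereas counts favour long ones. The summed count was 15987580, 21644808, 19547704 and 21999305 in libraries 1 to 4, and 18346 to 19623 gene models were detected. Mitochondrial genes and their copies in the nuclear genome took 73.6, 71.2, 75.1 and 74.8% of TPM and 58.5 to 62.9% of the counts. This left 6259219 to 8974398 counts for all other genes. A count of 3 for a gene of 1000 bases came to 0.151 to 0.213 TPM, the level that a count of 0 still allows. Differences in TPM between libraries carry the mitochondrial share with them: library 2 had the lowest such share and, of 4340 genes with enough reads, had the highest TPM in 56.9%. No test was run, because the libraries form 1 group. Even an exact paired test between genes could not pass the usual threshold with 4 libraries.

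The mitochondrial genes come first, since several of them have near-identical copies in the nuclear genome. A search of the GENCODE M21 transcripts found 19 nuclear copies of mitochondrial genes, of which 12 had a count and 6 had over 1000 counts. The starts of mt-Co3 and mt-Nd3 and a stretch within mt-Co1 are shown with copies that have counts in these libraries, from GENCODE M21 (mouse GRCm38 transcripts). Capitals mark bases that differ within a pair.
mt-Co3, bases 1 to 49: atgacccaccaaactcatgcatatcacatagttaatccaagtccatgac
Gm28437, its copy: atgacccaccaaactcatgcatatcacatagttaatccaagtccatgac
mt-Co1, bases 1054 to 1102: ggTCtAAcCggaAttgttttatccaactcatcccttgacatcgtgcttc
Gm29216, its copy: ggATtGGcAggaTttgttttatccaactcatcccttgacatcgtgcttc
mt-Nd3, bases 1 to 49: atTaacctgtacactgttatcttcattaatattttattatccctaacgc
Gm28438, its copy: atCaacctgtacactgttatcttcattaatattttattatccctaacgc
Gm28437 had no difference from mt-Co3 over 783 aligned bases. Gm28438 had 1 difference from mt-Nd3 over 345 aligned bases, T3C, with positions counted from the first base of mt-Nd3. Gm29216 covers 492 bases of mt-Co1 and differed at 6 of them, all within the stretch shown. Reads that fall where a pair is identical cannot be told apart by sequence.

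mt-Co3, which encodes subunit III of cytochrome c oxidase, stood at 12708, 11993, 11956 and 11018 TPM in libraries 1 to 4 from its own gene model. Its model kept only 8.22 to 9.81% of the counts of the gene and its copies. For joined values, the counts of the copies were added to those of the gene and divided by the gene's length. The scaling of each library was left unchanged, so a joined value is not the sum of the TPM of the separate models. Joined with its copies, mt-Co3 reached 129478, 130082, 138316 and 133963 TPM (132960 ± 4087). It took the 2nd place instead of the 8th among the 15 mitochondrial protein and ribosomal RNA genes. mt-Co2, which encodes subunit II, showed the widest spread of the 13 protein genes on its own, at 10896, 15319, 5628 and 5446 TPM. Library 2 held 2.81 times the level of library 4. Joined with the copy Gm28661 and others, mt-Co2 came to 117215, 116087, 107687 and 109335 TPM, with a coefficient of variation (CV, SD over mean) of 4.24% against 50.7% alone. Its place was the 12th alone and the 3rd joined.

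mt-Co1, the catalytic subunit I, was the highest gene in either form, with 133242, 120882, 131725 and 128492 TPM alone and 142340 ± 2974 TPM joined. mt-Atp6, a proton channel subunit of ATP synthase, went from 15136 ± 1071 TPM alone to 71195 ± 4239 joined with Gm10925 and others. mt-Nd3, a subunit of complex I, went from 9725 ± 879 to 34512 ± 5247. Of the remaining complex I genes, mt-Nd1 had 53466 ± 2242 TPM, mt-Nd4 29377 ± 2431 and mt-Nd2 28492 ± 689. mt-Cytb, the cytochrome b of complex III, had 49263 ± 1842. The lowest joined protein gene was mt-Nd4l, with 8622 ± 531 TPM, against 4756 ± 423 alone. mt-Nd6, the only protein gene on the other strand, had 10276 ± 412 TPM. The strand setting of the counting is unstated, so its reads cannot be told apart from those of the opposite strand. After joining, mt-Atp8 was the most variable protein gene, at 11865, 8572, 15243 and 14612 TPM, low in library 2 and high in libraries 3 and 4. No copy was assigned to mt-Atp8, so these values are those of its own gene model. Both mitochondrial ribosomal RNAs, mt-Rnr2 (5489 ± 584 TPM) and mt-Rnr1 (4682 ± 130 TPM), were below every joined protein gene. The 22 mitochondrial transfer RNA genes summed to 186 ± 65.8 TPM. The libraries were made by an mRNA-Seq kit, and its capture of ribosomal and transfer RNA was not tested. These levels therefore need not give the cell's content of such RNA.

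**Figure D1:**
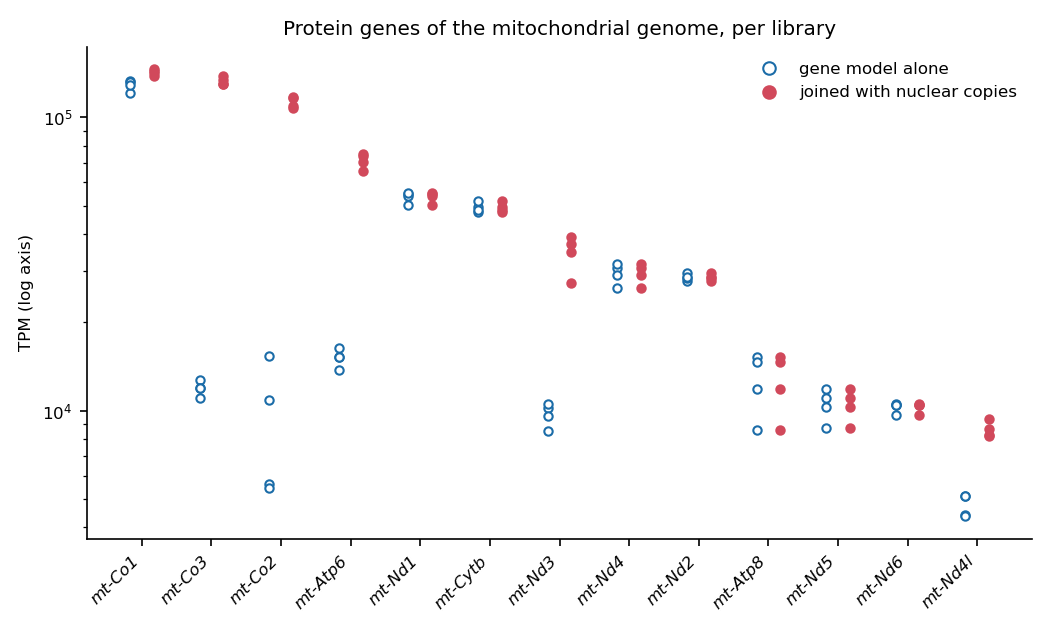
Level of the 13 protein genes of the mitochondrial genome in each of 4 libraries, in TPM on a log axis, from the gene model alone (open) and joined with its nuclear copies (filled). mt-Co3, mt-Co2, mt-Atp6 and mt-Nd3 move up most by joining, mt-Nd4l and mt-Co1 move up less, and the 4 values of mt-Co2 close up.

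Outside the mitochondrial genes and their copies, 56954 gene models were left. Of these, 8863 were at 1 TPM or more in all 4 libraries, and 33774 had no count in any. Among the 8863, 6157 had a mean from 1 to 10 TPM, 2339 from 10 to 100, 337 from 100 to 1000, and 30 at 1000 or more. The median was 4.97 TPM ± 0.217 over the libraries. Of the 8794 found in GENCODE M21, 96.3% were protein coding and 82 were lincRNAs. The nuclear output was concentrated in few genes. The 10 highest took 19.3% ± 0.461 of nuclear TPM, the 100 highest 45.4% ± 0.535 and the 1000 highest 78.3% ± 0.557. The gene at rank 100, Chchd2, stood at 378 TPM. These are short genes: the median length of the 100 highest was 913.5 bases, against 2614 for the 8863, and 59 of the 100 were under 1000 bases.

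Mb, myoglobin, which stores oxygen in muscle, was the highest nuclear gene, at 9722, 10089, 8827 and 8745 TPM in libraries 1 to 4. Myl2, the ventricular regulatory myosin light chain, followed at 8835, 10307, 8219.6 and 8273 TPM. Their ranges overlapped, so their order is not fixed by these libraries. Pln, phospholamban, came next at 7790.1, 6763, 6329 and 6896 TPM, below Myl2 and above Myl3 without overlap. Myl3, the ventricular essential light chain, had 5151, 5912, 4817 and 4721 TPM, and Actc1, cardiac actin, 4217, 5269.7, 4195 and 4272 TPM. The thin filament genes Tpm1 (tropomyosin, 3699 ± 309 TPM), Tnni3 (troponin I, 3473 ± 300.2) and Tnnt2 (troponin T, 3453 ± 448) came next. The only other neighbours among the 30 without overlap were Actc1 and Tpm1, so 3 of the 29 neighbour pairs were apart, and 13 kept their order in all 4 libraries. Each library's own 30 highest nuclear genes shared 29 with this list.

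The 30 highest genes fall into a few kinds. There are 8 of the sarcomere, 11 subunits of the respiratory chain and ATP synthase, and 2 of calcium handling (Pln and Atp2a2). The others carry fatty acids (Fabp3, Lpl), ATP (Slc25a4, Ckmt2), oxygen or iron (Mb, Fth1) or glycolysis (Gapdh, Aldoa), and Cryab is a chaperone. The place of several rests on the length used. In 9 of the 30, the longest GENCODE M21 transcript is over 1.5 times the deposited length. Scaled by that longest transcript, Pln (531 bases deposited, 2334 in the longest transcript) would have 1666 TPM and rank 11. Cox6c (503 and 3038 bases) would have 263 TPM and rank 140, and Atp5md (352 and 2733 bases) 145 TPM and rank 246. Mb and Myl2 stay at ranks 1 and 2. Of the 30, 25 remain among the 30 highest with the longest transcripts.

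**Figure D2:**
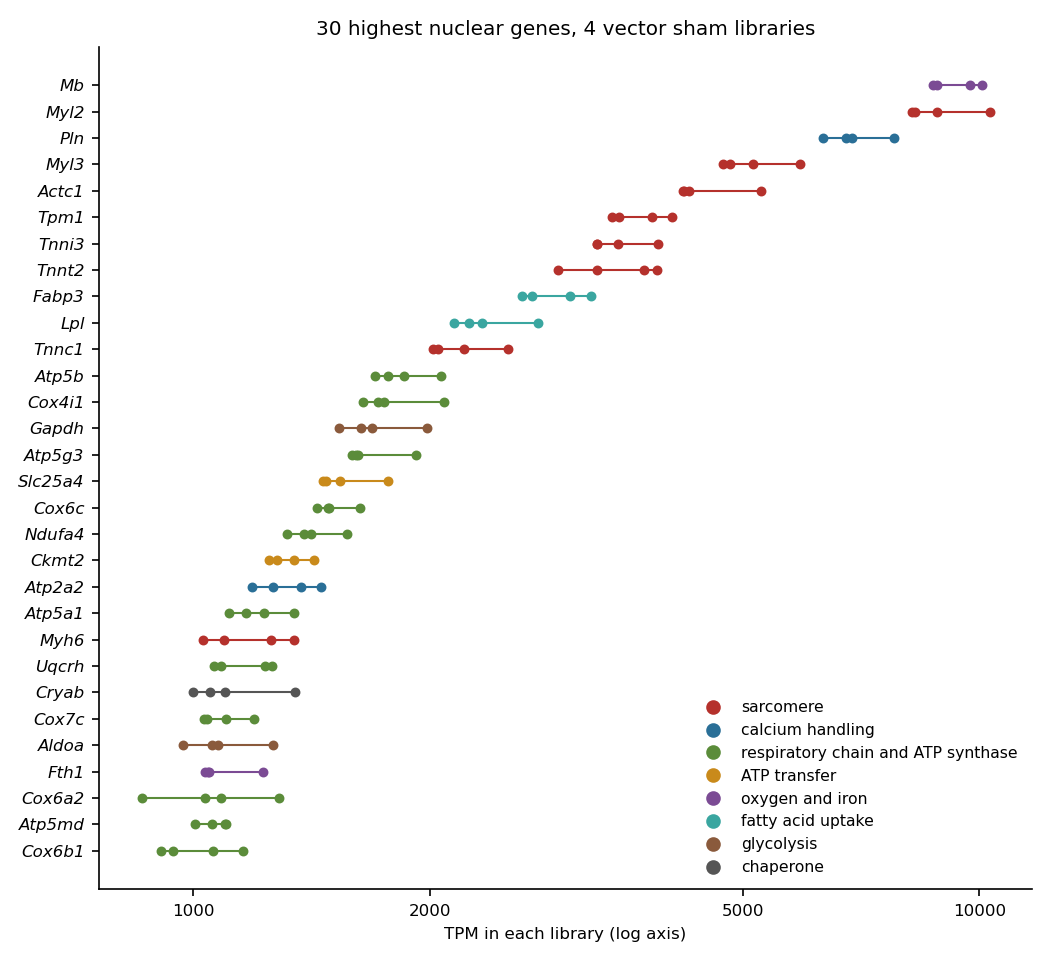
Level of the 30 highest nuclear genes in each of the 4 vector sham libraries, in TPM on a log axis, with a line from the lowest to the highest library and colours by function. Mb and Myl2 overlap at the top, and Pln stands apart from both of its neighbours.

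The sarcomere was led by a single set of cardiac isoforms. The 16 thick filament and M-band genes summed to 16024, 18186, 14675 and 14715 TPM, of which the top 3 members (Myl2, Myl3 and Myh6) held 95.8%. Myh6, the fast alpha myosin heavy chain of the adult mouse heart, had 1342, 1256, 1028 and 1096 TPM. Library 1 was highest for Myh6 and library 2 for both ventricular light chains. Myh7, the slow beta heavy chain, had 1.03, 1.21, 1.31 and 1.26 TPM, and the Myh6 to Myh7 ratio was 997 ± 227. Both genes had fractional counts in all 4 libraries, so part of their reads was divided with other gene models. The low Myh7 level and the ratio are uncertain for that reason. Each myosin molecule holds 1 heavy chain for each light chain of a kind, but Myl2 transcripts stood at 7.58 ± 0.719 times Myh6 and Myl3 at 4.38 ± 0.407 times. Mybpc3, cardiac myosin binding protein C, had 320.2 ± 28.6 TPM and Myom1, an M-band crosslinker, 128 ± 9.94. The atrial light chains Myl7 and Myl4 stood at 31.2 ± 4.12 and 25.8 ± 2.59 TPM. Ttn, titin, the giant spring of the sarcomere, had only 11.95, 9.61, 9.67 and 10.5 TPM over a deposited length of 107355 bases. By counts alone it ranked 31st among nuclear genes, and by TPM 2610th.

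The 18 thin filament genes summed to 18070.1, 20305, 16345 and 16906 TPM. Tnnt2 stood at 0.993 ± 0.0763 of Tnni3, with overlapping ranges, and Tnnc1, the calcium-binding troponin C, was lower in each library at 0.632 ± 0.0113 of Tnni3. Acta1, skeletal actin, stood at 255, 335, 273 and 280.4 TPM, and Actc1 exceeded it 15.7 ± 0.574 times. Lmod2, which lengthens thin filaments, had 154 ± 17.6 TPM. Of the skeletal troponins, Tnnt1 had 8.45 ± 1.51 TPM and Tnni2 1.42 ± 0.158, while Tnni1, Tnnt3 and Tnnc2 had means of 0.0823, 0.110 and 0.0201 TPM. Of the 29 Z-disc and cytoskeleton genes, 25 had a mean of at least 10 TPM. Cryab, a small heat shock protein that guards desmin and titin, led with 999, 1349, 1096 and 1052 TPM. Tcap (telethonin) had 887 ± 77.8 TPM, Csrp3 (muscle LIM protein) 821 ± 90.4, Fhl2 797 ± 67.8 and Myoz2 604 ± 51.8. Des, desmin, had 376 ± 31.7 TPM and Actn2, the actinin of the Z-disc, 344 ± 27.3. Myoz1 and Ankrd2, known from skeletal muscle, were at 0.0565 and 0.173 TPM. The 14 genes of the dystrophin complex had a median of 14.3 TPM. Dmd, dystrophin itself, stood at 2.58 ± 0.377 TPM.

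In calcium handling, the pump and its brake stood far above the release channel. Pln exceeded Atp2a2, the calcium pump SERCA2, by 5.27 ± 0.232 times. This ratio rests on the deposited length of Pln, since the longest transcript would put Pln at 1666 TPM and Atp2a2 at 1391. Atp2a2 had 1453, 1371, 1188 and 1263 TPM and exceeded Ryr2, the calcium release channel, 36.9 ± 2.08 times, with Ryr2 at 40.1, 34.3, 33.5 and 35.3 TPM. S100a1, a calcium sensor that binds both, had 596 ± 52.0 TPM. The calcium store proteins Casq2 and Hrc had 259 ± 24.6 and 259 ± 36.2 TPM. Slc8a1, the sodium-calcium exchanger, had 74.2 ± 8.03 TPM, and the surface calcium pump Atp2b1 was 21.3 ± 0.476 times lower. Sln, sarcolipin, a small pump inhibitor of the atrium, had 3.02, 3.21, 3.12 and 2.56 TPM, far under Pln. Strit1, which encodes the pump-activating micropeptide DWORF, had 20.4 ± 1.77 TPM. Of the FK506-binding proteins, Fkbp1a had 58.5 ± 5.55 TPM and Fkbp1b, the partner of Ryr2, 0.223 ± 0.0874.

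Ion channels were low. The 21 potassium channel genes had a median of 3.60 TPM and a sum of 187, 187, 169.5 and 173 TPM. Kcnk3, a background leak channel, had 34.8 ± 3.19 TPM, and Kcnip2, the partner of the transient outward channels, 32.7 ± 2.86. Kcnj11 and Abcc9, the subunits of the ATP-sensitive channel, had overlapping ranges (17.6 ± 1.48 and 17.4 ± 1.35 TPM). Kcnj2, the inward rectifier that sets the resting potential, had 4.00 ± 0.923 TPM. Among the 19 sodium, calcium and pacemaker genes, the regulator of the sodium pump Fxyd1 (phospholemman) was highest at 207 ± 28.5 TPM. Cacna1c, the L-type calcium channel, had 12.4 ± 0.855 TPM. The pacemaker channel Hcn4 stood at 0.836, 0.818, 0.726 and 0.626 TPM and Hcn2 at 3.74 ± 0.189. At the intercalated discs that join the cells, Gja1 (connexin 43) led with 73.9 ± 6.84 TPM, with the catenins Ctnna1 (55.4 ± 3.45) and Ctnnb1 (53.4 ± 1.96) and the desmosome gene Dsp (37.6 ± 2.85) below it. Gja5, the connexin of the atrium and conduction system, had 0.699 ± 0.0866 TPM, and Gjd3 had no count, which allows up to 0.255 TPM.

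Subunits of oxidative phosphorylation were abundant throughout. The nuclear genes of complex V summed to 12723, 14369, 12304 and 12344 TPM. Of the 20 symbols of this list, 17 matched. The list includes Atpif1, an inhibitor of the enzyme (113 ± 12.6 TPM), and leaves out the subunit Atp5mpl (456 ± 26.8 TPM). The subunits of complex IV with cytochrome c summed to 11544, 13742, 11672 and 11606 TPM. Those of complex I summed to 9975, 11750.5, 9891 and 9881 and those of complex III to 5368, 6424, 5362 and 5318. Per gene, complex IV had the highest median (698 TPM), followed by complex V (649), complex III (551) and complex I (256), against 4.97 for all 8863 genes. The medians of complexes IV, V and III are the means of Cox8b (618 to 819 TPM), Atp5j2 (599 to 696) and Uqcr10 (470 to 678), with overlapping ranges. Cox8b was below Atp5j2 in library 1 (618 against 687 TPM), so the order of complexes IV and V is not fixed by these libraries. Uqcr10 was the lowest of these genes in each library. All 36 complex I subunits had at least 10 TPM and 34 at least 100. Ndufb8 was the highest of them at 706 ± 75.8 TPM and Ndufb4 the lowest at 67.0 ± 4.19. Cox4i1, a regulatory subunit of complex IV, had 1720.3, 2086, 1747 and 1642 TPM. In ATP synthase, the catalytic Atp5b had 1854, 2066, 1703 and 1768 TPM and its partner Atp5a1 1213 ± 99.9, although the enzyme holds equal numbers of both. Atp5g3, the main source of subunit c, had 1687 ± 156 TPM. Cycs, cytochrome c, had 234 ± 12.8 TPM, with part of its reads shared with other gene models. By the Gene Ontology terms in the authors' deposited table, genes with the term mitochondrion made up 13.1% of the 8863 genes but 33.8% ± 0.475 of nuclear TPM, and were 63 of the 100 highest. The inner membrane term alone covered 2.93% of genes and 17.2% ± 0.270 of TPM. The term nucleus covered 30.8% of genes and 20.3% ± 0.164 of TPM.

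The genes that carry ATP out of mitochondria were close behind. Slc25a4, the ADP/ATP carrier of heart and muscle, had 1461, 1767, 1474 and 1537 TPM. Ckmt2, the mitochondrial creatine kinase, had 1343, 1425, 1249.9 and 1279 TPM and exceeded the cytosolic Ckm (648 ± 67.3) by 2.05 ± 0.116 times. Slc25a3, the phosphate carrier, had 941 ± 86.4 TPM and Vdac1, the main outer membrane channel, 701 ± 63.0. Slc6a8, which imports creatine, had 23.8 ± 1.07 TPM.

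Among the 30 genes of fatty acid uptake, activation and storage, Fabp3, Lpl and Cd36 stood highest. Fabp3, the heart fatty acid binding protein, had 3012, 3211, 2617 and 2697 TPM. Lpl, the lipase that frees fatty acids from blood lipoproteins, had 2745, 2146, 2245 and 2328 TPM, or 1152 with the longest transcript as its length. Cd36, the fatty acid importer, had 418 ± 34.3 TPM, 6.93 ± 0.830 times below Fabp3. The transporters Slc27a1 and Slc27a4 had 12.3 ± 0.970 and 3.14 ± 0.271 TPM, and the binding protein Fabp5 18.2 ± 2.93. Acsl1, which activates fatty acids, had 108 ± 9.15 TPM and Cpt1b, the gate to the mitochondrion, 101 ± 10.8. The 20 beta-oxidation genes had a median of 179 TPM, with 14 at 100 or more. Hadhb of the trifunctional protein had 637, 629, 515 and 562 TPM, and its partner Hadha 194 ± 20.6. Acadl, Acadm and Acadvl, the dehydrogenases for long, medium and very long chains, stood at 346 ± 32.9, 310.3 ± 23.6 and 301 ± 26.9 TPM. Ucp3, a mitochondrial carrier of muscle, had 13.2 ± 1.59 TPM. For ketone bodies, Oxct1, the enzyme that activates them for use, had 205 ± 18.5 TPM.

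The 32 genes of pyruvate dehydrogenase and the citric acid cycle had a median of 184 TPM, and 23 were at 100 or more. Mdh1 and Mdh2, the cytosolic and mitochondrial malate dehydrogenases, had 665 ± 61.3 and 595 ± 60.3 TPM. Idh2, the NADP-dependent isocitrate dehydrogenase, had 472 ± 47.2 TPM, above the NAD-dependent subunits Idh3b (245 ± 19.4), Idh3g (179 ± 17.2) and Idh3a (156 ± 10.8). The pyruvate carrier subunits Mpc1 and Mpc2 had 439 ± 11.4 and 263 ± 18.4 TPM. Pdk4, a kinase that switches pyruvate dehydrogenase off, had 155, 129.9, 126 and 138 TPM.

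Of the 35 genes for glucose and glycogen, 12 had at least 100 TPM and 6 were under 1. Gapdh had 1533, 1986, 1687 and 1635 TPM and Aldoa 972, 1263, 1075 and 1056. The muscle forms Eno3 (657 ± 50.7) and Pgam2 (416 ± 40.4) were the main enolase and mutase. Ldhb, the heart form of lactate dehydrogenase, had 672, 752, 605 and 619 TPM and exceeded Ldha 2.42 ± 0.117 times. Slc2a4, the insulin-responsive glucose transporter GLUT4, had 70.3, 82.3, 69.4 and 66.4 TPM, against 2.20, 1.85, 1.85 and 1.76 for Slc2a1, the general transporter GLUT1. Hk2 and Hk1, which trap glucose in the cell, stood at 24.7 ± 2.34 and 19.01 ± 1.76 TPM, well under the later enzymes. Pygm, muscle glycogen phosphorylase, had 222 ± 20.3 TPM and Gys1, glycogen synthase, 16.1 ± 1.17.

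**Figure D3:**
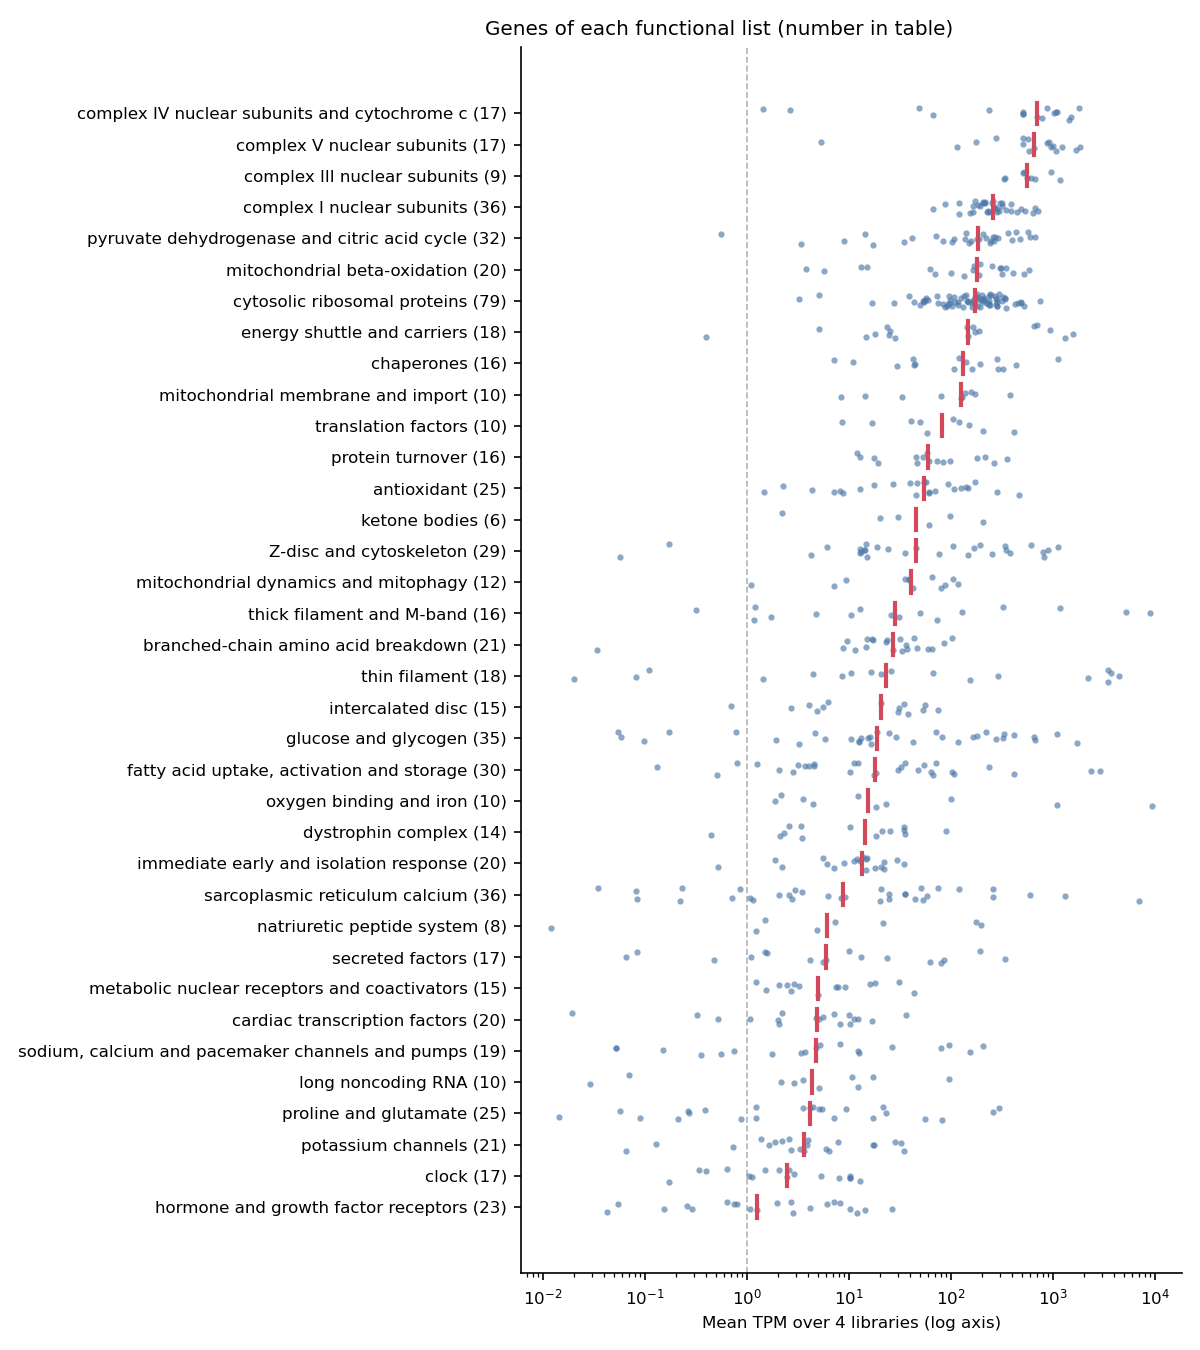
Mean level over the 4 libraries of each gene in 36 functional lists, in TPM on a log axis, with the list median as a red bar and 1 TPM as a dashed line. Lists of the respiratory complexes are at the top and hormone receptors at the bottom, and 9 points under 0.01 TPM are not drawn.

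Other housekeeping functions ranged widely. Fth1, the ferritin heavy chain that stores iron, had 1088 ± 92.5 TPM, and Tfrc, the transferrin receptor that imports it, 18.4 ± 1.81. Gpx4, which removes lipid peroxides, led the 25 antioxidant genes at 462 ± 28.1 TPM, followed by the peroxiredoxin Prdx5 (285 ± 24.9). The manganese dismutase Sod2 had 69.3 ± 3.99 TPM and the cytosolic Sod1 174 ± 13.4. Among 16 chaperones, Hspa8 (438 ± 32.1), the small heat shock gene Hspb6 (322 ± 39.9), Hsp90ab1 (291 ± 30.9) and Hspb7 (282 ± 33.7) followed Cryab. In protein turnover, Ctsd, a lysosomal protease, had 358 ± 32.8 TPM and Map1lc3a, an autophagosome coat protein, 265 ± 32.4. Pink1, the mitophagy kinase, had 116 ± 9.83 TPM. The fusion genes Mfn2 and Mfn1 stood at 86.5 ± 7.92 and 80.4 ± 8.97 TPM.

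The 79 cytosolic ribosomal protein genes summed to 14547, 16926, 14596 and 14287 TPM, or 5.74% ± 0.177 of nuclear TPM. Their products enter the ribosome in equal numbers, yet their levels ran from 751 ± 65.8 TPM for Rps2 to 3.23 ± 0.230 for Rpl12. Rpl12 and Rpl5 (5.13 ± 0.400 TPM) both had fractional counts, so part of their reads was divided with other gene models, as in 70 of the 79. Levels of single ribosomal protein genes are uncertain for that reason. The sum and its share are uncertain too, as far as the other models lie outside the list. Eef1a2, the muscle and neuron form of the elongation factor, had 416 ± 42.0 TPM and exceeded the general form Eef1a1 2.75 ± 0.228 times.

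Proline and glutamate metabolism is the pathway that the series manipulates in other groups, and these libraries give its level under the vector virus. Prodh, proline dehydrogenase, which takes the first step of proline breakdown in mitochondria, was low at 4.56, 4.71, 4.05 and 4.58 TPM. This value is a mean of 4.48 ± 0.290 at rank 4731 among nuclear genes. Its deposited length is 2386 bases, and with the longest transcript of 4943 bases it would be 2.28 TPM. Aldh4a1, which completes the conversion to glutamate, had 16.6, 20.5, 16.2 and 14.9 TPM and exceeded Prodh 3.81 ± 0.477 times. Prodh2, which acts on hydroxyproline, had 0.0068 TPM. The synthesis genes Pycrl, Pycr1 and Aldh18a1 stood at 4.17 ± 0.424, 0.263 ± 0.109 and 1.24 ± 0.307 TPM. Oat, ornithine aminotransferase, which joins the pathway from ornithine, had 55.9 ± 4.09 TPM. Pepd, which frees proline from dipeptides, had 5.03 ± 0.824 TPM. The highest genes of this list of 25 were the aspartate transaminases Got1 (296 ± 27.9) and Got2 (259.5 ± 26.0), followed by Glul (glutamine synthetase, 81.8 ± 7.01). Glud1, glutamate dehydrogenase, had 21.3 ± 1.33 TPM. Of the 25 genes, 14 reached 1 TPM in all 4 libraries. In branched-chain amino acid breakdown, 20 of 21 genes reached it, led by Hibadh (101 ± 7.34 TPM), and Bcat1, the cytosolic transaminase, was at 0.0338 TPM.

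The list medians of regulators were 4.91 TPM for cardiac transcription factors and 5.02 TPM for metabolic receptors and coactivators, next to 4.97 TPM for all 8863 genes. The sets are unlike: the 8863 genes all reach 1 TPM in all 4 libraries, whereas the list medians include members that do not. Of 20 cardiac transcription factors, 14 reached 1 TPM in all 4 libraries and 5 had a mean of at least 10. Mef2d had 32.9, 39.9, 35.4 and 37.0 TPM, above Mef2a (16.7 ± 1.59). Both had fractional counts in all 4 libraries, and Mef2a was the higher with the longest transcript as length and without length scaling. Their order is uncertain for these reasons. Gata4 (12.3 ± 1.15), Hand2 (11.2 ± 0.901), Nkx2-5 (10.1 ± 1.64) and Srf (9.94 ± 1.35) followed closely, with overlapping ranges between neighbours. Gata6 (8.23 ± 0.385), Tead1 (7.13 ± 0.784), Tbx20 (5.60 ± 0.886), Mef2c (5.04 ± 0.416) and the ventricular factor Irx4 (4.78 ± 0.608) came below them. Myocd, Tbx5 and Zfpm2 stood near 2 TPM, and Tbx3, a factor of the conduction system, at 1.06 ± 0.123. Isl1, a factor of heart progenitors, was at 0.00706 TPM. Hand1 had no count, which allows up to 0.118 TPM. Mef2b, Tbx18 and Prdm16 stood at 0.0192, 0.321 and 0.525 TPM.

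Among metabolic regulators, Perm1, a muscle coactivator of mitochondrial genes, had 43.5 ± 3.04 TPM and the receptor Esrra 31.1 ± 3.47. Ppargc1a, the coactivator PGC-1 alpha, had 7.81 ± 1.09 TPM. The 3 PPAR receptors were close to each other, with Ppara, the fatty acid sensor, at 2.96, 1.68, 1.45 and 2.08 TPM. The natriuretic peptide genes, which encode hormones of the stretched heart, stood at 189, 187, 169.6 and 151 TPM for Nppa and 212, 216, 185 and 179 for Nppb. Nppa was below Nppb in each library, at 0.880 ± 0.0313 of its level. Corin, the protease that activates the peptides, had 21.6 ± 2.01 TPM.

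Receptors for hormones and growth factors formed the lowest functional list, with a median of 1.26 TPM over 23 genes. Adipor1, an adiponectin receptor, led at 26.2 ± 2.49 TPM, followed by the glucocorticoid receptor Nr3c1 (14.3 ± 1.12). Adrb1, the main beta-adrenergic receptor of cardiomyocytes, had 1.90, 2.20, 1.81 and 1.95 TPM, and Adra1b 4.19 ± 0.920. Chrm2, the muscarinic receptor, had 10.3 ± 1.30 TPM. Adrb3 and Agtr2 had no count, which allows up to 0.160 and 0.0649 TPM. Of secreted factors, Cst3 (cystatin C, 337 ± 33.4 TPM) and Clu (clusterin, 195 ± 18.8) were highest. Vegfb had 85.9 ± 9.74 TPM, above Vegfa (61.7 ± 8.52), and Fndc5, the irisin precursor, 80.2 ± 5.33. The early response genes Fos (28.1, 30.2, 28.6 and 30.5 TPM) and Dusp1 (34.6 ± 1.81) were present in each library, as were the heat shock genes Hspa1a (14.9 ± 0.894) and Hspa1b (14.7 ± 0.868), whose reads were partly divided. Clock genes were low, with Nr1d2 (12.7 ± 1.69) and Dbp (10.3 ± 0.768) among the highest and Arntl at 2.06 ± 0.306 TPM. The time of day of collection is not in the labels. Malat1, a nuclear long noncoding RNA, had 96.1, 86.9, 92.2 and 106 TPM. Mhrt, which lies antisense to Myh7, had 10.6 ± 0.691 TPM, and its reads cannot be told apart from those of its partner without strand.

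Isoform choice was sharp in most gene families. Of 52 families, 1 member held at least 90% of the family's TPM in 29, at least 95% in 19 and at least 99% in 13. The leading member was above the next in all 4 libraries in 50 families. Several contractile and calcium families were nearly pure: Myh6 held 99.7% of the 3 cardiac heavy chains, Tnni3 99.96% of troponin I and Atp2a2 99.9% of calcium pumps. Myh6 and Myh7 had fractional counts in all 4 libraries, so the Myh6 share carries the uncertainty given above. Actc1 held 94.01% of sarcomeric actin, and myomesin was divided between Myom1 (71.9%) and Myom2 (27.95%). Several fuel families had a strong leader, with Slc2a4 at 97.2% of the 3 glucose transporters, Cpt1b at 96.4% and Eno3 at 93.95%. In complex IV, muscle forms led, with Cox6a2 at 95.6%, Cox8b at 91.3% and Cox7a1 at 63.0% of their families. Cox7a1 exceeded Cox7a2 by 1.71 ± 0.118 times, so 37.0% of this family was the general form. Creatine kinase, lactate dehydrogenase and glycogen phosphorylase were mixed, with leaders at 66.7, 70.7 and 72.7%. In 8 families the leader held under 60%. Among them were calmodulin (Calm2 47.2%), the PPAR receptors (Pparg 39.5%), aspartate transaminase (Got1 53.3%), hexokinase (Hk2 56.5%), pyruvate dehydrogenase kinase (Pdk4 57.6%), the muscle ring fingers (Trim54 53.4%) and the transient outward channels (Kcnd2 54.3%). Kcnd2 was above the next gene, Kcnd3, in 3 of the 4 libraries. With the longest transcript as length, the leader was kept in 51 of 52 families. The exception was MEF2, where Mef2a then led. Without length scaling it was kept in 47.

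**Figure D4:**
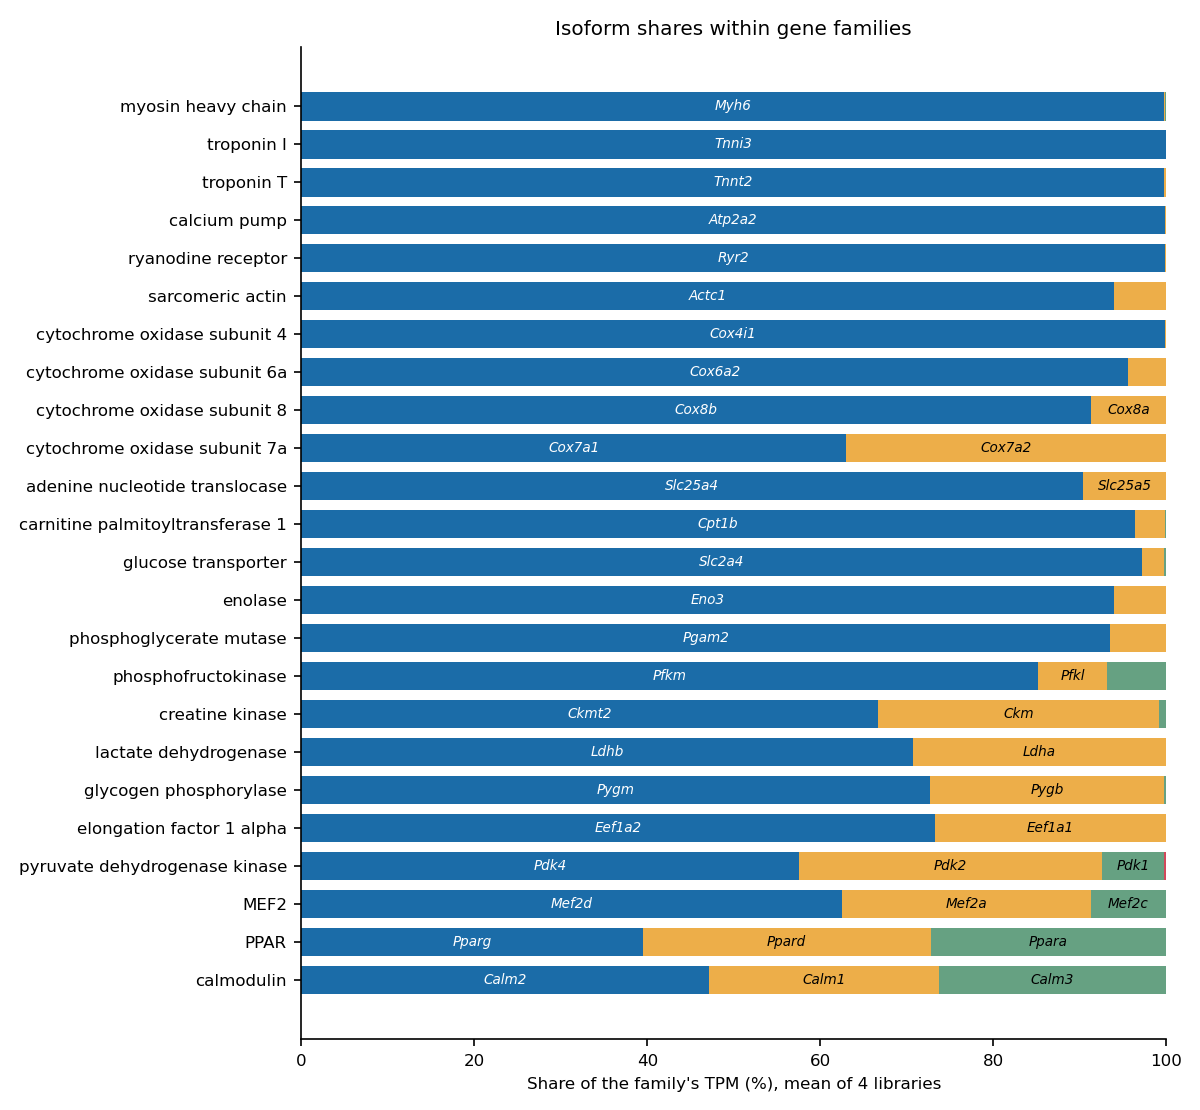
Share of each isoform in the summed TPM of 24 gene families, as the mean of 4 libraries in percent, with members over 7% named. From myosin heavy chain down to phosphoglycerate mutase 1 member holds at least 90%, apart from cytochrome oxidase subunit 7a, and from creatine kinase down the families are split.

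The label of the cells was checked against marker genes. The 15 ventricular cardiomyocyte markers were all at 1 TPM or more in every library and summed to 39588, 42820.5, 35338 and 36461 TPM. The 18 endothelial markers, all detected, summed to 491, 575, 554 and 516 TPM, of which Fabp4 gave 236 ± 16.1. Pecam1 and Cdh5, which define these cells, had 23.4, 25.1, 26.8 and 22.5 and 17.2, 18.8, 19.3 and 17.7 TPM. In the mural list, Des gave 376 ± 31.7 of a sum of 478 to 558 TPM, and cardiomyocytes express it too. The pericyte marker Rgs5 had 39.9 ± 0.667 TPM, Pdgfrb 2.46 ± 0.328 and Myh11, of smooth muscle, 1.83 ± 0.228. The 16 fibroblast markers summed to 129, 171, 186 and 144 TPM, and 13 were at 1 TPM or more in all 4 libraries. Gsn (63.8 ± 13.3) and Dcn (43.7 ± 6.22) led, Dpt had 7.65 ± 1.21 TPM and Col3a1 7.27 ± 0.957, and Pdgfra, Tcf21 and Ddr2 were at 0.544 to 0.796 TPM. The 17 myeloid markers summed to 119, 168, 184 and 143 TPM, and 14 were at 1 TPM or more in all 4 libraries. Lyz2 (56.7 ± 8.69), Cd74 (21.6 ± 5.10), C1qb (15.7 ± 2.18) and H2-Aa (13.1 ± 2.52) were among the highest, and Ptprc, Fcgr1 and Cx3cr1 were at 0.494, 0.484 and 0.319 TPM. Red cell and platelet genes summed to 183, 257, 283 and 208 TPM, mostly globins. Library 1 was lowest in the fibroblast, myeloid and red cell lists, and library 3 highest in all 3.

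None of the 9 lymphoid markers reached 1 TPM, and their sum stayed at or below 1.12 TPM. Glial and mesothelial lists summed to at most 2.82 and 4.30 TPM. Of the adipocyte list, only Fabp4 was over 1 TPM, and of 13 skeletal muscle genes 4 were (Ckm, Myl1, Casq1 and Tnni2), while Myh2 and Myh4 had no count. Ckm, which cardiomyocytes express too, gave 648 ± 67.3 TPM of a skeletal muscle sum of 630 to 781 TPM. Of the 14 atrial and conduction genes, 6 reached 1 TPM in all 4 libraries, led by Nppa and Myl7. In sorted or isolated cells, fewer cells of a type and less RNA per cell cannot be told apart. Genes of the Y chromosome were expressed in all 4 libraries, with Eif2s3y at 32.6, 27.4, 25.4 and 30.5 TPM and Ddx3y at 20.8, 12.03, 15.1 and 18.4. Xist, which silences an X chromosome in females, had no more than 3 counts in any library. The labels do not give the sex of the mice.

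**Figure D5:**
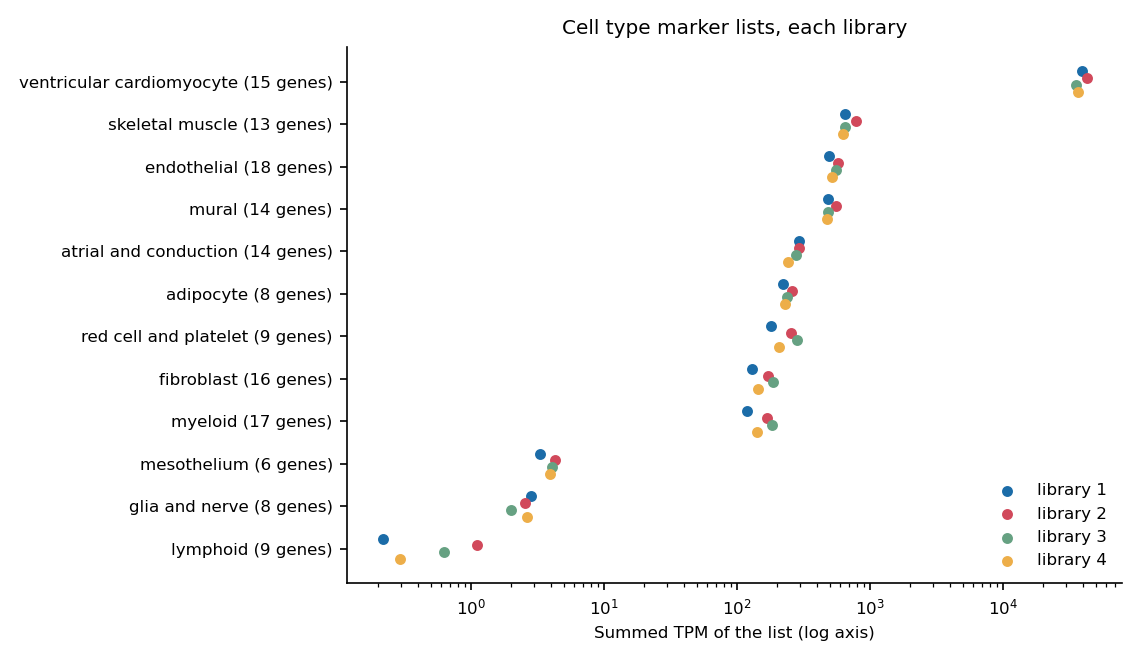
Summed TPM of 12 cell type marker lists in each of the 4 libraries, on a log axis. The ventricular cardiomyocyte list starts at 35338 TPM, and the highest value of any other list is 781 TPM, for skeletal muscle in library 2, of which Ckm gave 748 TPM.

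The promoters of the 100 highest nuclear genes were searched for a few short motifs in RefSeq windows (GRCm38.p6), from 250 bases before to 50 after each annotated start. Of the 100 genes, 76 matched with 93 windows. TATAAA, the core of the TATA box, was in none of them at 40 to 20 bases before the start, against 1.99% of all 32851 windows and 1.22% of the 8981 windows of genes at 1 TPM or more. CTAAAAATA, a MEF2 site, was in none on either strand, against 0.517% of all and 0.401% of those at 1 TPM or more. With 93 windows and background shares this low, finding none cannot show a depletion of either motif. CACGTG, the E-box, was in 5.38% on either strand (Atp5g3, Atp5l, Atp5pb, Myl12a and Serf2), against 7.15% and 10.1%. TCAAGGTCA, an estrogen-related receptor site, was in Atp5g3 alone (1.08%), against 0.423% and 0.256%. None of these motifs contains another. The median GC content was 57.7% for the 100 genes, 61.0% for all at 1 TPM or more and 52.7% for all windows. No motif count here says whether a factor binds.

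Levels were close between the libraries for most genes. Over 4340 genes with a mean of at least 5 TPM and 100 counts, the median ratio of the highest to the lowest library was 1.23. It was over 1.5 in 165 genes (3.80%) and over 2 in 17. The median CV was 9.28%, against 4.25% from counting alone. Alb, albumin, a liver product, had the widest spread among genes with a standard symbol, at 4.402, 8.80, 4.51 and 21.2 TPM, high in library 4. The complement genes C1qa (8.54, 14.4, 20.2 and 13.7 TPM) and C1qc (5.73, 10.8, 12.5 and 9.35) of macrophages, the class II gene H2-Ab1 (5.45, 9.57, 11.4 and 8.82) and the globin Hba-a1 (18.6, 32.5, 39.4 and 27.0) were each lowest in library 1 and highest in library 3. The fibroblast, myeloid and red cell marker sums have the same order at both ends. C1qa and C1qc are themselves in the myeloid list and Hba-a1 in the red cell list, so those sums are not separate evidence. The part of other cells in these values was not tested.

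The remaining genes with wide ratios were of other kinds. Scand1 had 3.98, 9.70, 7.91 and 9.29 TPM, Rpp21 6.04, 11.9, 7.87 and 9.34 and Atpsckmt 9.71, 6.36, 4.54 and 7.02, at mean counts of 114 to 139.6. Rpl10, a ribosomal protein gene, had 44.1, 83.1, 41.3 and 46.4 TPM, high in library 2, and its counts are fractional. The ribosomal pseudogenes Gm11518 (68.7, 6.20, 70.6 and 66.1 TPM) and Rpl27-ps3 (68.7, 147.6, 70.6 and 66.1 TPM), with fractional counts in all 4 libraries, had equal values in 3 libraries and unequal ones in library 2. Their sum was 137, 154, 141 and 132 TPM, a ratio of 1.16 between the highest and lowest library. The libraries also differed by gene length. Scaled over nuclear genes only, the median log2 ratio to the 4-library mean was -0.12 in library 2 for the 3662 genes of 3000 bases or more, and 0.02 for the 897 under 1000 bases. In library 1 it was 0.08 and -0.05.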

How the data were processed

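Per the labels' protocols, RNA from isolated cardiomyocytes was taken up in TRIzol, treated with DNase I and made into libraries by the SMARTER mRNA-Seq kit. Deposited by the authors was 1 table of estimated counts per gene model and library, which need not be whole, with a length for each gene model and Gene Ontology terms. The sources used here name no aligner, counter, build or annotation, and coordinates of the table are therefore left out. Of the 57010 gene models, 5981 had a fractional count in at least 1 of the 4 libraries. Each library's TPM was computed from the deposited estimated counts as count over deposited length, scaled to a sum of 1000000 over all gene models, and summarised as the mean, SD and range over 4 libraries. The deposited length equals the longest GENCODE M21 transcript for 82.2% of the 52029 gene models found there, and for 55.2% of those at 1 TPM or more.

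Nuclear copies of mitochondrial genes were transcripts in GENCODE M21 that matched one by blastn (version 2.17.0) at 85% identity or more over 90% or more of their length. Nuclear genes are all others outside the mitochondrial genome. Promoter windows and their starts are from RefSeq. Tables were handled in Python 3.11.15 with pandas 2.3.3 and numpy 2.4.6. The scaling was tested on simulated counts for vector sham: over 7438 genes with 100 or more counts, the median error of the mean TPM was 1.68%, and 197 of 200 genes set to other levels came back within 10%. Counts were simulated and scaled with the same deposited lengths, so this checks the computing step alone. It cannot show errors from those lengths, from divided reads or from differences between libraries.

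The 51 gene lists (872 of 877 entries matched a symbol) and 52 isoform families were chosen with earlier results of these data known. Named genes were the 30 highest nuclear genes with a standard symbol, the mitochondrial protein genes, the leading members of each list, members of the isoform families described, 20 cardiac transcription factors, the proline genes, Xist and Y genes, and 12 genes with the widest spread, of which some are named. Further list members are named as examples of a role, and these and Rpl27-ps3, Gm11518, Rpl5 and Rpl12 were picked after their values were seen. The alternatives were a sum over nuclear genes only, no length scaling, the longest reference transcript as length, rounded counts, a minimum count of 10, other TPM thresholds and leaving out each library. Intervals and floors cover counting error only. Some members of the lists are not reported here.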

Additional observations from a re-analysis of the deposited data

Results flagged for a closer look

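The library measures, the summed lists and the named genes reaching 1 TPM were checked for a library far from the other 3, by the gap to its nearest neighbour as a share of the whole range, with Dixon's 95% limit. Chance flags about 1 in 20 such groups. Of 278 values tested, mitochondrial genes joined with their copies included, 34 passed the limit (12.2%). Single genes made up 23 of them and summed lists 11, and in 30 library 2 was the highest. Library 2 also had the lowest share of TPM in mitochondrial genes and their copies. Scaled over nuclear genes only, 3 of the 33 nuclear values still passed the limit, those of Rpl10, Gm11518 and Rpl27-ps3. Values that had not passed at first were not checked again with this scaling. Rpl10 was named for its wide spread, and Gm11518 and Rpl27-ps3 were picked after their values were seen. The share of 12.2% is therefore not a test against 1 in 20.

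The summed lists above the other 3 libraries in library 2 were glucose and glycogen (7428 TPM, the others 6209 to 6269), complex I (11750.5), complex III (6424), complex IV (13742), antioxidant genes (2269.9), chaperones (3830.04), cytosolic ribosomal proteins (16926), translation factors (1289.9), mural markers (558) and skeletal muscle markers (781). The clock list was lowest in library 3 (70.0 TPM, the others 72.4 to 72.9).

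Single genes that stood out as high in library 2 were the contractile and structural genes Actc1 (5269.7 TPM, the others 4195 to 4272) and Des (423), and the energy genes Atp5g3 (1919), Ckm (748), Eno3 (733), Pgam2 (476), Pygm (252), Idh2 (542) and Mdh2 (685). Also high there were Eef1a2 (479), Fth1 (1226), Gpx4 (504), Hspb7 (332), Map1lc3a (313), Cst3 (387), Fkbp1a (66.7), Bsg (696), the ribosomal RNA model Rn18s-rs5 (848) and Rpl10 (83.1, the others 41.3 to 46.4). Of the ribosomal pseudogenes, Rpl27-ps3 was high in library 2 (147.6 TPM, the others 66.1 to 70.6) and Gm11518 low there (6.20 TPM, the others 66.1 to 70.6), while their sum did not pass the limit. Slc8a1, the sodium-calcium exchanger, was high in library 1 (86.2 TPM, the others 69.7 to 71.4). The mitochondrial ribosomal RNA mt-Rnr1 was low in library 4 (4489 TPM, the others 4725 to 4769).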

How the results depend on the processing

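No paired analysis was possible because the report describes 1 group and its values come from no test. The number of genes at 1 TPM or more in all 4 libraries, 8863 as reported, was 11793 when TPM was summed over nuclear genes only, 10934 without length scaling, 8683 with the longest reference transcript as length and 9495 by the mean. A threshold of 0.5 TPM gave 10535 and one of 5 TPM gave 4090. Leaving out 1 library in turn gave 8933 to 9002. The share of TPM in mitochondrial genes and their copies, 73.7%, was 61.2% without length scaling and 77.7% with the reference length, and 73.2 to 74.5% with 1 library left out. The share in the 100 highest nuclear genes, 11.9% of all TPM, was 45.4% when summed over nuclear genes only, 13.5% without length scaling, 9.81% with the reference length, and 11.5 to 12.2% with 1 library left out. The median of the nuclear genes at 1 TPM or more, 4.97 TPM, was 11.6 over nuclear genes only, 9.26 without length scaling, 4.61 with the reference length, and 4.81 to 4.95 with 1 library left out. These differences follow from the construction of each alternative. Rounded counts and a summed count of 10 or more moved none of these 4 results by more than 1 SD. Of 872 list and top genes, 254 moved by over 1 SD with the reference length, and of 51 list medians 23 did. Joining with nuclear copies, an alternative chosen after seeing the data, moved 6 of the 15 mitochondrial genes by over 1 SD. Of the 100 highest nuclear genes, 79 remained with the reference length and 62 without length scaling. A gene with no count may still stand at up to 3 counts, or 0.151 to 0.213 TPM for a length of 1000 bases.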

Other observations

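Several of the 100 highest nuclear genes belong to none of the lists above, and they are named here because their rank was seen. Ech1, an enzyme of fatty acid breakdown, had 630.4, 718, 599 and 615 TPM. Bsg, basigin, which brings monocarboxylate transporters to the cell surface, had 573, 696, 581 and 563 TPM. Tpt1, an abundant protein of translation and growth, had 544, 596, 539 and 551 TPM, and Crip2, a LIM domain protein of the heart, 349.7, 465, 379 and 371 TPM. Myl12a, the regulatory light chain of non-muscle myosin, had 502, 554, 445 and 453 TPM, below the cardiac Myl2 by the values given above. Atp5mpl, a small ATP synthase subunit, had 460.1, 492, 435 and 435 TPM. Library 2 was the highest of the 4 libraries for each of these 6 genes, as it was for 56.9% of the 4340 genes with enough reads. The 6 were picked, so this is not a trait particular to them.

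The 100 highest also hold gene models without a standard symbol. Of the 100, 99 were found in GENCODE M21 and all 99 are typed protein coding there, Gm10053 and Gm11808 included. Rn18s-rs5, a model for 18S ribosomal RNA that was not found there, had 500.0, 848, 514 and 456 TPM. As for the mitochondrial ribosomal RNAs, its capture by the mRNA-Seq kit was not tested. The models Gm10053 and Gm11808, with fractional counts in all 4 libraries, had 539.7, 563, 516 and 486 TPM and 444, 484, 448 and 454 TPM.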
